A study of Homo sapiens with 6 samples.

Results

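Homologous recombination repairs double-strand DNA breaks by copying an intact sister sequence, and the Fanconi anaemia pathway uses much of the same machinery to remove crosslinks that tie the strands of DNA together. A break is first cut back to single-stranded DNA, BRCA1, PALB2 and BRCA2 then prepare it for strand exchange, and the joined molecules are finally separated by dissolution or cutting. In the Fanconi pathway a core complex with the conjugating enzyme UBE2T attaches ubiquitin to the pair FANCD2 and FANCI. Many of these genes are known to be transcribed mainly in cells that are replicating their DNA, when a sister copy is at hand. The 42 genes described here are a named list of both pathways with their checkpoint kinases, and were found by gene symbol. All 42 were among the 17721 genes of the deposited table, and all 42 passed the filter on low counts, with at least 18 counts in every library.

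RNA was measured by sequencing in MDA-MB-231BR, a brain-seeking subline of MDA-MB-231, which is an established triple-negative human breast cancer line. There were 6 libraries, 3 of cells with a stably expressed control shRNA and 3 of cells with one directed at ACSS2, the enzyme that turns acetate into acetyl-CoA in the cytosol and nucleus. The hairpins were delivered with virus and the cells were selected with an antibiotic, in both groups. The labels call the 3 libraries of a group biological replicates and number them 1 to 3 in both groups, but the sample titles attach the same number to the shRNA itself. Whether the numbers stand for replicates of 1 hairpin, for different hairpins or for separate infections is thus not settled by the labels, and pairing by replicate number below means pairing by this number.

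ACSS2 mRNA, the target of the hairpin, was at 76.3, 71.2 and 164 CPM (counts scaled to a common library size) in control libraries 1, 2 and 3. It was at 11.1, 50.5 and 88.7 CPM with ACSS2 shRNA 1, 2 and 3. Within each replicate number the ACSS2 shRNA library had less of it, but ACSS2 shRNA library 3 stood above control libraries 1 and 2. The edgeR log2 fold change, ACSS2 shRNA over control, was -1.05 (SE 0.64) without pairing by replicate number and did not pass (adjusted p = 0.504). With pairing it was -1.31 (SE 0.30, adjusted p = 0.00757). Library totals lay between 15048275 and 18608124 counts. The first principal component of all genes, with 44.4% of the variance, ordered the libraries by replicate number, and the second, with 29.9%, separated the hairpins. Markers of this mesenchymal line were high in every library (VIM 5449 to 6820 TPM, a level scaled by transcript length). Of 6 such markers, CD44 (log2 fold change -0.57, edgeR adjusted p = 0.00598) and FOSL1 (-0.84, adjusted p = 0.00124) fell with pairing, without overlap between the groups (12.4% of all genes were lower with pairing). The other 4, VIM among them, did not pass, and none of the 6 passed without pairing. CDH1 was at 0.05 TPM or less, ESR1 at 0.57 to 1.21 TPM and EPCAM at 1.51 to 4.39 TPM. Of 4 fibroblast markers, DCN and LUM were at no more than 0.11 TPM, whereas COL1A1 brought the summed level to 13.0 to 17.8 CPM in the control libraries and 24.3 to 51.3 CPM with ACSS2 shRNA. Of 3 immune markers, PTPRC and CD3E did not exceed 0.18 TPM, while CD68 was at 379.8 to 888 TPM, and the glial markers GFAP and AQP4 did not exceed 0.32 TPM. The 4 neural and glial markers, mostly MBP and RBFOX3, summed to 116 to 241 CPM in control and 75.0 to 192 CPM in ACSS2 shRNA libraries, and the 3 endothelial ones (VWF at most 0.2 TPM) to 4.28 to 5.75 and 5.51 to 15.1 CPM. The part of these differences in the results was not tested.

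Of the 42 genes, 15 fell and 1 (ATM) rose with ACSS2 shRNA when each library was compared with the control library of its replicate number, at an edgeR adjusted p under 0.05 over 13003 genes. The other 26 did not pass. Over all genes tested, 12.4% were lower and 12.7% higher by the same rule. A log2 fold change below 0 was seen in 38 of the 42 genes, called or not, and in 6123 of the 13003 genes tested. The groups by role described below are small, and none was tested as a set. In such bulk RNA, fewer cells that express a gene and less RNA per cell cannot be told apart. The median log2 fold change was -0.36 over the 42 genes and 0.02 over all genes tested. Those that fell were RAD50, NBN, EXO1 and DNA2, which sense and trim breaks, BRCA1, the strand-exchange genes RAD51C, XRCC3, RAD54B and RAD54L, the junction genes BLM and EME1, and FANCG, UBE2T, FANCD2 and FANCI of the Fanconi pathway.

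The fit without the pairing was chosen as the primary one, and none of the 42 passed there in either direction. By edgeR, 0.0461% of all genes were called lower and 0.0231% higher without the pairing. At an unadjusted p under 0.05, 5 of the 42 were lower in that fit (NBN, XRCC3, EME1, UBE2T and FANCI) and none was higher, against 7.11% and 6.89% of all genes. DESeq2 without pairing called 1 gene lower, EME1, against 2.22% of all genes. In the authors' deposited table EME1 was also the only one of the 42 with a q under 0.05 (log2 fold change -1.29, q = 0.0090), where 1.51% of the 16861 genes with a q were lower by that rule. Leaving out replicate number 2 reduced the paired count from 15 to 8 lower genes. Without replicate 1 it was 11, and without replicate 3 it was 16. Over all genes, the count of lower ones went from 1608 to 917, 1383 and 1554 in the same order. Lower in all 8 alternatives with pairing (another test, scaling or filter, TPM in place of counts, or 1 replicate number less) were EME1, EXO1, FANCD2, FANCI, RAD54L, UBE2T and XRCC3. The share of all genes that meets this rule was not counted, and all 8 alternatives keep the pairing.

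**Figure D1:**
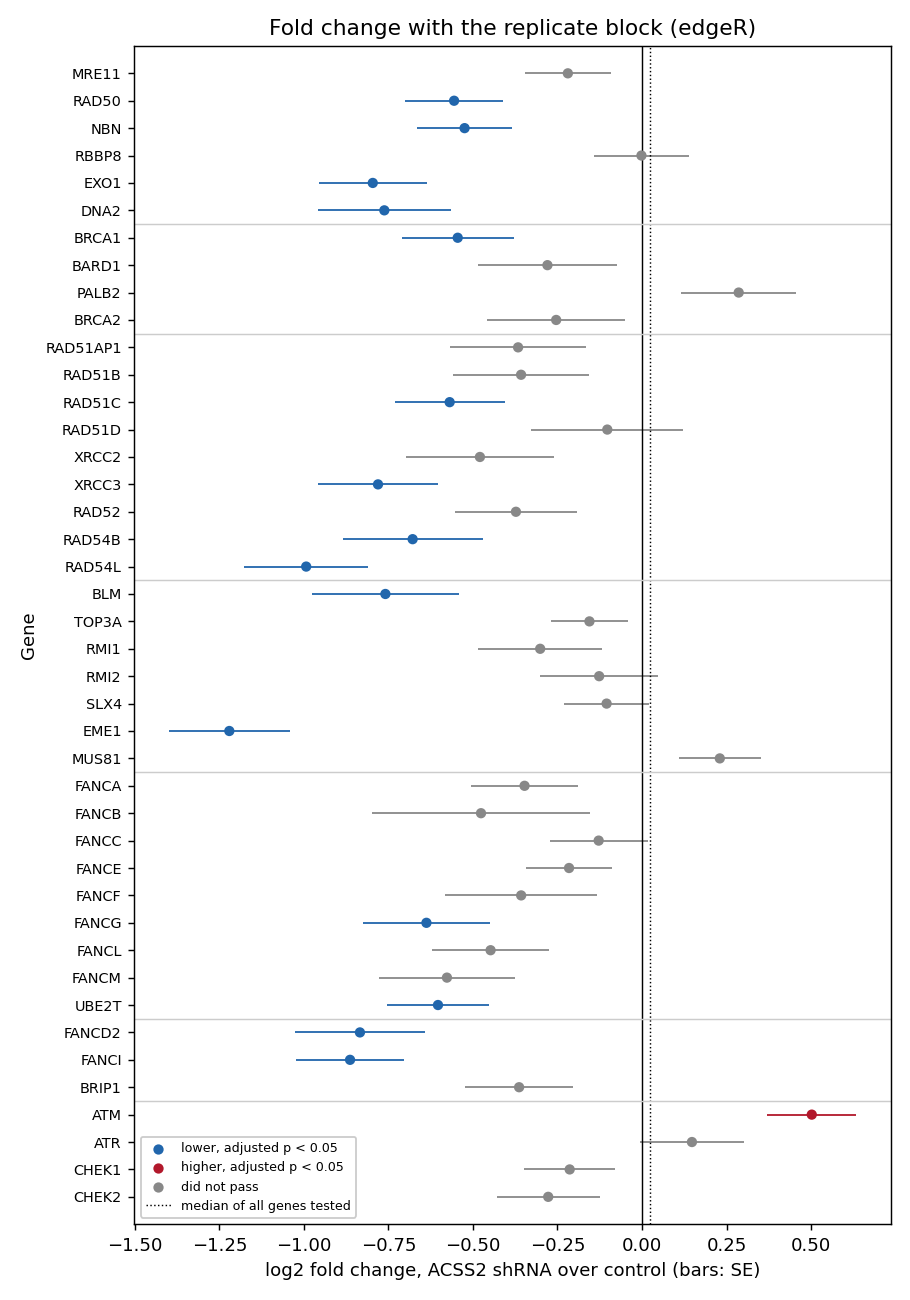
Log2 fold change of each of the 42 genes, ACSS2 shRNA over control, with pairing by replicate number (points; bars are the SE, 3 libraries per group), grouped by role from break sensing at the top to checkpoint kinases at the bottom. Blue points passed lower (15 genes), the red point passed higher (ATM) and grey points did not pass (26 genes); the dotted line is the median of all genes tested.

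Because 38 of the 42 values lay on the same side of 0, the RefSeq start regions (GRCh38.p14, 250 bases before to 50 after a start) were searched for letters known from cell-cycle promoters. Windows were given for 37 of the 42 genes, 50 windows in all since some genes have several starts, and FANCI, DNA2, NBN, RAD54B and RMI2 had none. The E2F-type letters TTTCCCGC, read on both strands, were in 3 of the 50 windows (6.0%), against 1.63% of all 35116 windows and 2.32% of the 15573 windows of genes tested here. They were in 1 of the 15 windows of genes that fell (6.67%) and in 2 of the 35 others (5.71%). The second E2F-type spelling, TTTGGCGC, was in 0 of 50 against 0.652% and 0.995%. CCAAT on either strand was in 21 of 50 windows (42%) against 34.6% of all windows and 34.6% of those of tested genes. It was in 40% of the 15 windows of genes that fell and in 42.9% of the 35 others. These windows do not cover all genes that fell, since FANCI, DNA2, NBN and RAD54B had none and some genes have several. The letters TTTGAA of the CHR element were in 4 of 50 (8.0%) against 15.2% of all windows and 10.6% of those of tested genes. None of the 4 motifs contains another. A match is only a description of the letters.

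The 3 matches to TTTCCCGC are shown with neighbouring bases, 30 bases each, with the match in capitals, because they are all such matches among these genes. They lie in FANCC (chr9:95317737-95317766, minus strand, bases -57 to -28 from the start), FANCD2 (chr3:10026424-10026453, plus strand, -13 to 17) and XRCC2 (chr7:152676102-152676131, minus strand, 11 to 40), and in the last 2 the letters stand on the opposite strand, as GCGGGAAA. Of these 3 genes only FANCD2 passed the test.
FANCC: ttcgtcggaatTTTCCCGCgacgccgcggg
FANCD2: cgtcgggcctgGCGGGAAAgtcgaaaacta
XRCC2: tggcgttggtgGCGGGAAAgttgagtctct

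For 4 genes that were lower in all 8 paired alternatives, 100 bases before the start, outside annotated exons, are shown with CCAAT (or ATTGG, the same letters on the opposite strand) in capitals. The stretches are EME1 chr17:50373031-50373130 (plus strand, bases -198 to -99), RAD54L chr1:46247588-46247687 (plus, -100 to -1), UBE2T chr1:202341981-202342080 (minus, -144 to -45) and XRCC3 chr14:103715505-103715604 (minus, -153 to -54). UBE2T and XRCC3 each show 2 whole matches and RAD54L shows 1, with a further CCAAT cut off at the start itself. The EME1 stretch holds none. Of the other genes lower in all 8 paired alternatives, FANCI had no window. EXO1 and FANCD2 had only 13 and 48 bases outside exons before the start, so no such stretch is shown for them. The windows of EXO1, FANCD2 and EME1 hold no CCAAT anywhere.
EME1: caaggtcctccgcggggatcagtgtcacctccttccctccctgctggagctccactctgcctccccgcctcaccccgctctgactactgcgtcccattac
RAD54L: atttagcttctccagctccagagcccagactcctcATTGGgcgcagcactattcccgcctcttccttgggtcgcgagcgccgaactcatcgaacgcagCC
UBE2T: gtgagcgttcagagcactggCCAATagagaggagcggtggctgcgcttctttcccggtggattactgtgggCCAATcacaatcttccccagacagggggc
XRCC3: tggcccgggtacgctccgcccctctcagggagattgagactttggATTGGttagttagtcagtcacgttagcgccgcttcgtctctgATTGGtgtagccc

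Levels per transcript length spanned a wide range. In control libraries UBE2T was the most abundant of the 42 transcripts, at 68.3 ± 19.3 TPM (SD, n = 3), above FANCE at 26.6 ± 2.45 TPM by more than their spread. FANCE, XRCC3 (24.2 ± 12.5 TPM), CHEK1 (20.2 ± 8.73), MUS81 (19.7 ± 5.76), FANCI (18.6 ± 8.72), FANCA (18.5 ± 11.8) and TOP3A (18.2 ± 6.50) did not differ from their neighbours in this order beyond their spread. The lowest were FANCB (0.843 ± 0.417 TPM), BRCA2 (1.09 ± 0.651), BARD1 (1.58 ± 0.363) and FANCM (2.04 ± 0.883), and neighbours among these did not differ beyond their spread either. BRCA1 was at 3.91 ± 2.07 TPM.

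**Figure D2:**
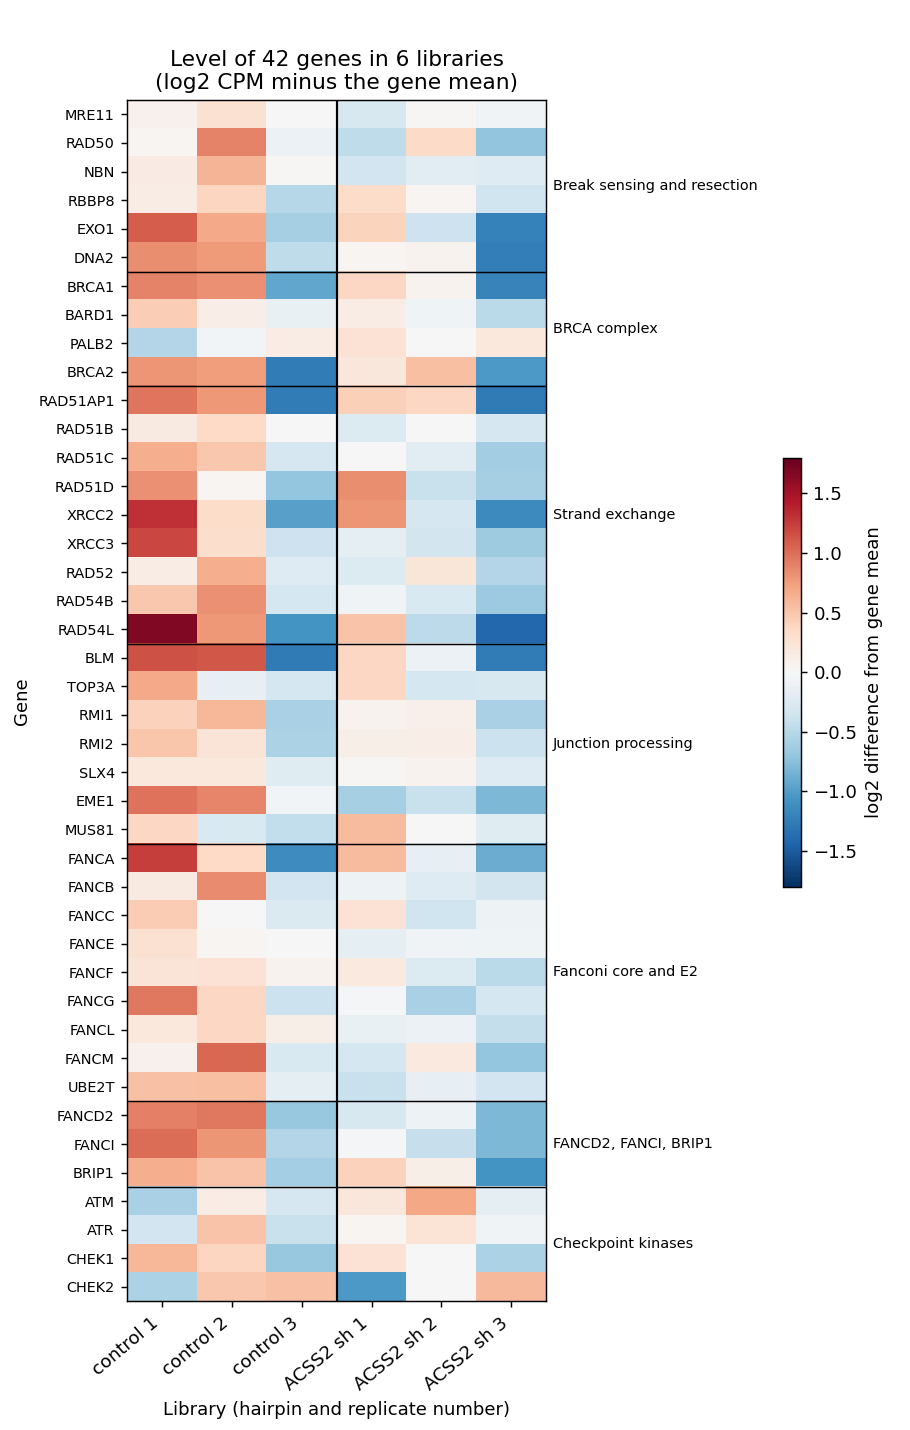
Level of the 42 genes (rows, grouped by role) in the 6 libraries (columns, control to the left of the black line), as log2 CPM minus the mean of the gene over the 6 libraries. Red is above and blue below the gene's mean; the columns of replicate number 3 are blue for most genes in both hairpin groups, and RAD54L spans the widest range, from 29.4 CPM in control library 1 to 3.47 CPM in ACSS2 shRNA library 3.

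Among the 6 genes of break sensing and resection, 4 fell with pairing (12.4% over all genes). EXO1, the 5′ to 3′ exonuclease that extends resection (chr1:241847967-241895148, plus strand), was at 21.4, 16.1 and 6.65 CPM in control libraries 1 to 3 and at 13.3, 7.73 and 4.34 CPM with ACSS2 shRNA 1 to 3. It was lower in every pair, but the groups overlapped because control library 3 lay below ACSS2 shRNA libraries 1 and 2. EXO1 fell by 0.80 on the log2 scale with pairing (SE 0.16, edgeR adjusted p = 0.0036), and without pairing the value was -0.80 (SE 0.50, adjusted p = 0.514). DNA2, a helicase and nuclease of the same step (chr10:68414064-68472121, minus strand), was at 8.37, 7.98 and 3.42 CPM in the control libraries and 4.79, 4.90 and 1.99 CPM with ACSS2 shRNA. The 3 pairs of DNA2 gave almost equal log2 ratios, -0.79, -0.69 and -0.75, although control library 3 again lay below ACSS2 shRNA libraries 1 and 2. By edgeR it changed by -0.76 (log2) in both fits (SE 0.20, adjusted p = 0.0138 paired; SE 0.46, adjusted p = 0.497 unpaired), and the paired call was lost on log2(TPM + 0.1).

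The break-binding complex of MRE11, RAD50 and NBN was lower in part. RAD50, its tethering ATPase (chr5:132556019-132646344, plus strand), was at 11.5, 20.9 and 10.5 CPM in the control libraries and 8.13, 14.2 and 6.82 CPM with ACSS2 shRNA, with library 2 the highest of each group. The edgeR estimate for RAD50 was -0.56 (log2) in both fits (SE 0.15, adjusted p = 0.0153 paired; SE 0.37, adjusted p = 0.544 unpaired). NBN, which recruits ATM, was at 25.3, 34.8 and 23.1 CPM in the control libraries and 17.9, 19.8 and 19.4 CPM with ACSS2 shRNA, so the groups did not overlap. For NBN edgeR gave -0.52 (log2, SE 0.14, adjusted p = 0.0165) paired and -0.54 (SE 0.20, adjusted p = 0.295) unpaired. Both calls were lost without replicate number 2 and with TPM. MRE11, the nuclease of the complex, had a paired log2 fold change of -0.22 and did not pass, with 26.5 ± 2.72 CPM in the control libraries and 22.8 ± 2.45 CPM with ACSS2 shRNA (SD, n = 3). RBBP8, which starts resection, was at 27.9 ± 8.36 and 27.5 ± 6.44 CPM, a log2 fold change of -0.0018 that did not pass. For RAD50, 90.6% of the exonic bases are shared with the annotated gene AC116366.3 on the same strand in GENCODE 29. The annotation used for counting is not known here, and RAD50 had whole counts in all 6 libraries.

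Of the 4 genes of the BRCA complex, only BRCA1 fell with pairing (12.4% over all genes). BRCA1 (chr17:43044295-43170245, minus strand) was at 16.2, 15.5 and 4.59 CPM in the control libraries and 11.3, 9.11 and 3.78 CPM with ACSS2 shRNA. It was lower in every pair, and control library 3 lay below ACSS2 shRNA libraries 1 and 2. BRCA1 changed by -0.54 (log2, SE 0.17, edgeR adjusted p = 0.0298) paired and -0.58 (SE 0.53, adjusted p = 0.673) unpaired. This was the least stable of the 15 lower calls, kept in 3 of 8 paired alternatives and lost without replicate number 1, without replicate number 2, with DESeq2 and with TPM. Its partner BARD1 (4.65 ± 0.923 CPM in control cells, 3.83 ± 0.801 CPM in ACSS2 shRNA, log2 fold change -0.28) and its downstream mediator BRCA2 (7.14 ± 4.17 and 5.75 ± 2.75 CPM, -0.25) did not pass. PALB2, which bridges BRCA1 and BRCA2, was at 12.04 ± 2.69 and 14.5 ± 1.38 CPM, a log2 fold change of 0.29 that did not pass, and it was higher in each of the 3 pairs.

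Among the 9 genes of strand exchange, 4 fell with pairing (12.4% over all genes). All 9 had values below 0, as had 6123 of the 13003 genes tested. RAD54L, the motor protein that drives strand invasion (chr1:46247688-46278473, plus strand), was at 29.4, 15.8 and 4.39 CPM in the control libraries and 13.1, 6.66 and 3.47 CPM with ACSS2 shRNA. Control library 1 stood far above the rest, and control library 3 below ACSS2 shRNA libraries 1 and 2. RAD54L fell by 0.99 on the log2 scale with pairing (SE 0.18, edgeR adjusted p = 0.0023), a 1.99-fold lower level, and its unpaired value was -1.09 (SE 0.67, adjusted p = 0.509). The pairs differed in size, with log2 ratios of -1.16, -1.23 and -0.33. XRCC3, a strand-exchange mediator (chr14:103697609-103715504, minus strand), was at 57.1, 30.8 and 19.2 CPM in the control libraries and 22.1, 19.7 and 15.9 CPM with ACSS2 shRNA. Its groups overlapped only through control library 3. XRCC3 changed by -0.78 (log2, SE 0.18, edgeR adjusted p = 0.00747) paired and -0.89 (SE 0.37, adjusted p = 0.338) unpaired.

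RAD51C, which pairs with XRCC3 (chr17:58692573-58735611, plus strand), was at 14.5, 12.8 and 7.43 CPM in the control libraries and 9.13, 7.92 and 5.96 CPM with ACSS2 shRNA. Control library 3 lay below ACSS2 shRNA libraries 1 and 2. RAD51C changed by -0.57 (log2, SE 0.16, edgeR adjusted p = 0.0232) paired and -0.59 (SE 0.31, adjusted p = 0.437) unpaired. It did not pass with pairing in DESeq2 or without replicate number 1 or 2. RAD54B, a relative of RAD54L, was at 7.69, 9.64 and 4.39 CPM in the control libraries and 5.23, 4.52 and 3.47 CPM with ACSS2 shRNA. Here too control library 3 lay below ACSS2 shRNA libraries 1 and 2. The edgeR estimate for RAD54B was -0.68 (log2, SE 0.21, adjusted p = 0.0303) paired and -0.71 (SE 0.35, adjusted p = 0.405) unpaired. It did not pass with pairing in DESeq2, with TPM or without replicate number 2. The mediators RAD51B (paired log2 fold change -0.36), RAD51D (-0.10) and XRCC2 (-0.48), the annealing protein RAD52 (-0.37) and RAD51AP1, which stimulates strand invasion (-0.37), did not pass. Their mean levels were 3.56 to 7.33 CPM across both groups. Exonic bases are shared with FSBP on the same strand for RAD54B (63.3%), with KLC1 on the opposite strand for XRCC3 (45.3%) and with LRRC41 on the opposite strand for RAD54L (18.0%). The expected counts of RAD54B were whole only in control library 3 (68), and were for example 135.42 in control library 1 and 94.22 in ACSS2 shRNA library 1. No source used here says which annotation was counted or whether strand was used. Without strand, reads from bases shared with an opposite gene cannot be told apart.

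Of the 7 genes that process joined molecules, 2 fell with pairing (12.4% over all genes). EME1, the partner of the nuclease MUS81 (chr17:50373220-50381483, plus strand), was at 18.8, 17.6 and 9.23 CPM in the control libraries and 6.35, 7.29 and 5.46 CPM with ACSS2 shRNA. All 3 ACSS2 shRNA libraries lay below all 3 control libraries. EME1 had the largest change of the 42 genes in the paired fit, a log2 fold change of -1.22 (SE 0.18, edgeR adjusted p = 0.0006), or 2.33-fold lower. Without pairing it was -1.26 (SE 0.31, adjusted p = 0.137). MUS81 itself did not pass, at 26.6 ± 8.46 CPM in the control libraries and 31.0 ± 9.02 CPM with ACSS2 shRNA (SD, n = 3), with a paired log2 fold change of 0.23. It was higher in each pair, while EME1 was lower in each pair. EME1 shares 10.3% of its exonic bases with LRRC59 on the opposite strand.

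BLM, the helicase that dissolves double junctions (chr15:90717327-90816165, plus strand), was at 14.1, 13.9 and 2.65 CPM in the control libraries and 8.29, 5.91 and 2.67 CPM with ACSS2 shRNA. Pairs 1 and 2 were lower (log2 ratios -0.75 and -1.22) and pair 3 was level (0.010). BLM changed by -0.76 (log2, SE 0.22, edgeR adjusted p = 0.0236) paired and -0.86 (SE 0.62, adjusted p = 0.579) unpaired, and the paired call was lost with TPM and without replicate number 1 or 2. The other subunits of the BLM complex did not pass: TOP3A, its topoisomerase, was at 72.9 ± 28.8 and 64.2 ± 18.5 CPM (log2 fold change -0.16), RMI1 had -0.30 and RMI2 -0.13. The nuclease scaffold SLX4 did not pass either, at 22.4 ± 3.48 and 20.7 ± 2.23 CPM (-0.10).

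Among the 9 genes of the Fanconi core and its conjugating enzyme, FANCG and UBE2T fell with pairing (12.4% over all genes). All 9 had values below 0, as had 6123 of the 13003 genes tested. UBE2T (chr1:202331657-202341980, minus strand) was at 37.98, 38.4 and 23.2 CPM in the control libraries and 19.9, 23.8 and 20.7 CPM with ACSS2 shRNA. The groups overlapped narrowly, between control library 3 and ACSS2 shRNA library 2. UBE2T changed by -0.60 (log2, SE 0.15, edgeR adjusted p = 0.0117) paired and -0.63 (SE 0.23, adjusted p = 0.279) unpaired. FANCG, a core subunit (chr9:35073835-35080016, minus strand), was at 30.0, 20.2 and 11.9 CPM in the control libraries and 15.4, 10.4 and 12.5 CPM with ACSS2 shRNA. Pairs 1 and 2 were lower (-0.96 and -0.94) and pair 3 was not (0.069). FANCG changed by -0.64 (log2, SE 0.19, edgeR adjusted p = 0.0268) paired and -0.70 (SE 0.34, adjusted p = 0.402) unpaired, and the paired call was lost with TPM and without replicate number 1 or 2.

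The remaining core genes did not pass. FANCM, the DNA translocase that anchors the core (paired log2 fold change -0.58, edgeR adjusted p = 0.0522), and FANCL, the ubiquitin ligase (-0.45, adjusted p = 0.0750), came closest. FANCL was at 8.20, 9.29 and 7.75 CPM in the control libraries and 6.51, 6.66 and 5.34 CPM with ACSS2 shRNA, without overlap, and shares 26.6% of its exonic bases with VRK2 on the opposite strand. FANCE did not overlap between the groups either (36.2 ± 3.89 and 31.1 ± 1.23 CPM, log2 fold change -0.22). FANCA (-0.35), FANCB (-0.48), FANCC (-0.13) and FANCF (-0.36) are further core subunits. FANCA was at 75.3 CPM in control library 1 and 14.5 CPM in control library 3, a spread wider than the difference between the hairpins. It shares 22.4% of its exonic bases with ZNF276 on the opposite strand. FANCB rested on 18 to 47.4 counts per library. Of the 42 genes, NBN, EME1, FANCE and FANCL were the 4 whose ACSS2 shRNA libraries all lay below all control libraries, against 9.63% of all genes, and none had all of them above, against 10.7%. The count of 4 is near that background.

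The mRNAs of both proteins that the core complex ubiquitinates were lower with pairing. FANCD2 (chr3:10026414-10101930, plus strand), the gene with an E2F-type match across its start shown above, was at 22.9, 23.7 and 7.62 CPM in the control libraries and 10.0, 11.5 and 7.01 CPM with ACSS2 shRNA. Its partner FANCI (chr15:89243949-89317261, plus strand) was at 68.5, 59.1 and 23.8 CPM in the control libraries and 33.2, 25.7 and 19.5 CPM with ACSS2 shRNA. In both genes control library 3 lay below ACSS2 shRNA libraries 1 and 2, and the difference was widest in pairs 1 and 2. FANCD2 fell by 0.83 on the log2 scale (SE 0.19, edgeR adjusted p = 0.00757) with pairing, and was -0.93 (SE 0.42, adjusted p = 0.370) without. FANCI fell by 0.86 (SE 0.16, edgeR adjusted p = 0.00231) with pairing, and was -0.95 (SE 0.38, adjusted p = 0.324) without. FANCI shares 8.33% of its exonic bases with POLG on the opposite strand. BRIP1, the helicase that binds BRCA1, had a paired log2 fold change of -0.36 and did not pass, although it was lower in each pair.

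Of the 4 checkpoint kinases, ATM rose and none fell with pairing (12.7% and 12.4% over all genes). ATM, the kinase that answers double-strand breaks (chr11:108222484-108369102, plus strand), was at 50.9, 84.1 and 62.3 CPM in the control libraries and 88.5, 124 and 68.7 CPM with ACSS2 shRNA. It was higher in each pair, and the groups overlapped through control library 2. ATM changed by 0.50 (log2, SE 0.13, edgeR adjusted p = 0.0151) paired and 0.51 (SE 0.26, adjusted p = 0.433) unpaired, and the paired call was lost without replicate number 1 and without replicate number 2. ATR, the kinase that answers single-stranded DNA (16.8 ± 6.39 and 18.0 ± 2.01 CPM, log2 fold change 0.15), its effector CHEK1 (32.6 ± 13.2 and 27.2 ± 7.54 CPM, -0.21) and the ATM effector CHEK2 (17.3 ± 6.37 and 14.7 ± 7.46 CPM, -0.28) did not pass.

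**Figure D3:**
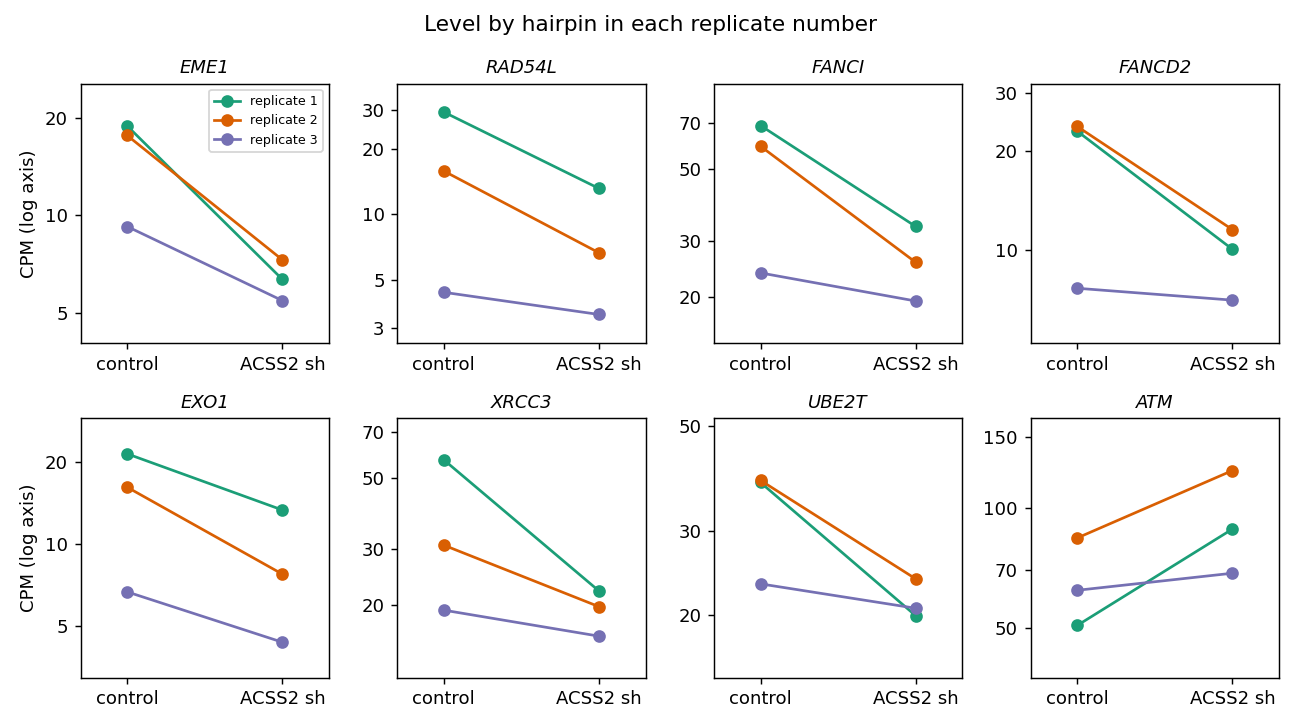
CPM (log axis) of the 7 genes lower in all 8 paired alternatives and of ATM, in control and ACSS2 shRNA cells; each line joins the 2 libraries of a replicate number. Every line falls for the 7 genes and rises for ATM. These genes were picked on the same paired values, so the direction of the lines is no separate support. Over all genes, 27.3% were lower and 30.5% higher in each pair. Replicate number 3 (purple) starts lowest in control for the 7 genes, for example at 23.8 CPM for FANCI against 68.5 and 59.1 CPM.

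The 42 genes also differed between replicate numbers. In the fit with hairpin and replicate number together, 30 of the 42 genes differed between numbers at an edgeR adjusted p under 0.05, against 38.7% of all genes. In 29 of these, replicate 3 was below replicate 1, and CHEK2 was the exception. Over all genes, 5030 differed between numbers, with replicate 3 below replicate 1 in 2544 and above it in 2486. The median difference of replicate 3 from 1 was -0.74 (log2) over the 42 genes and -0.01 over all genes. RAD54L had the largest difference (-2.35), with control library 1 at 6.70 times control library 3 and ACSS2 shRNA library 1 at 3.78 times ACSS2 shRNA library 3. XRCC2 (-2.12), BLM (-2.02), RAD51AP1 (-1.96) and FANCA (-1.91) followed. CHEK2 ran the other way, at 9.91, 20.7 and 21.2 CPM in the control libraries and 7.24, 14.8 and 22.1 CPM with ACSS2 shRNA 1 to 3.

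The hairpin difference was also smaller in pair 3. The median log2 ratio of ACSS2 shRNA over control over the 42 genes was -0.42 in pair 1, -0.49 in pair 2 and -0.10 in pair 3. For ACSS2 itself the log2 ratios were -2.76, -0.49 and -0.88 in the same order, and a relation between the 2 was not tested. Of the 42 genes, 25 were lower in each of the 3 pairs, against 27.3% of all genes. The 3 that were higher in each pair (30.5% of all genes) were PALB2, MUS81 and ATM, and 14 were mixed. Whether the pairs differ in the size of the change was not tested.

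Genes of DNA replication and cell division moved in the same direction in the same libraries. Of 24 S-phase genes, 19 fell with pairing (12.4% over all genes) and none rose, with a median log2 fold change of -0.58. CDC6, which loads the replicative helicase, had -1.24 (edgeR adjusted p = 0.000343) and RRM2, a ribonucleotide reductase subunit, -0.83 (adjusted p = 0.00122). Of 16 genes of G2 and mitosis, all 16 fell with pairing, with a median of -0.77, CDC20 at -1.16 (adjusted p = 0.000163) and TPX2 at -1.39 (adjusted p = 0.000177) among them. None of either list passed without pairing. The summed level of the S-phase genes was 1770, 1023 and 486 CPM in control libraries 1 to 3 and 949, 632 and 452 CPM with ACSS2 shRNA 1 to 3. The 42 repair genes summed to 975, 884 and 542 CPM in the control libraries and 742, 687 and 525 CPM with ACSS2 shRNA. Both sums were thus lowest in replicate number 3 of each group, and lower with ACSS2 shRNA in each pair. The part of the cell-cycle genes in the change of the repair genes was not tested.

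**Figure D4:**
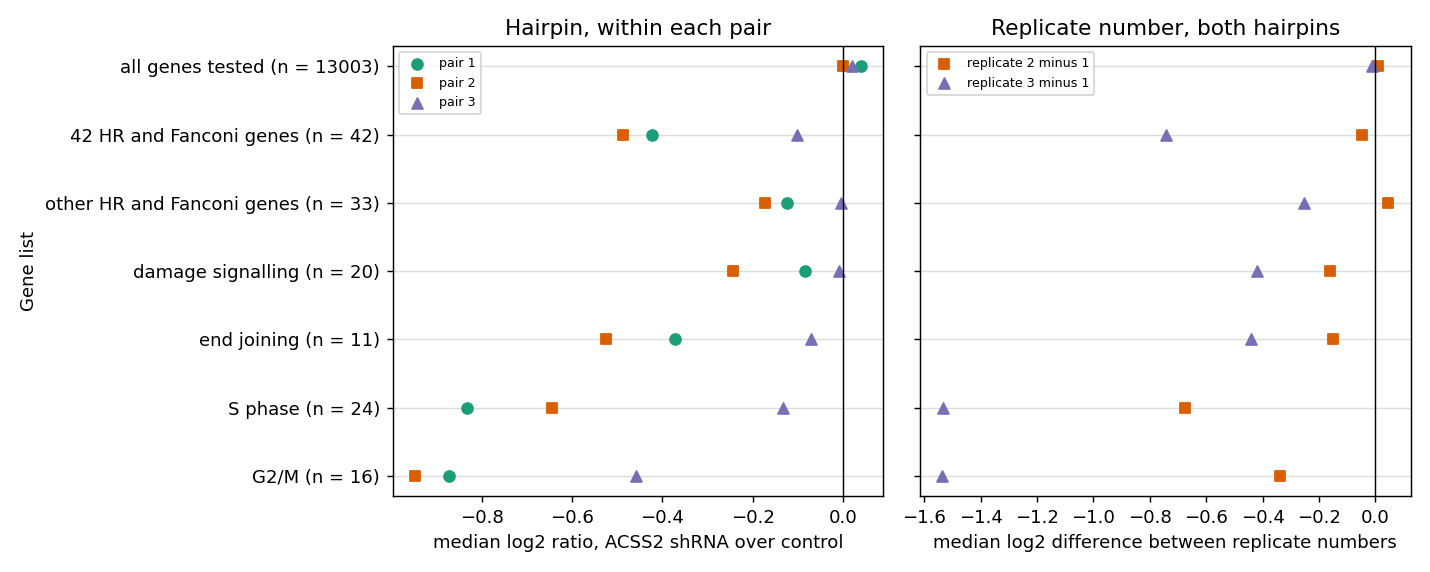
Left, median log2 ratio of ACSS2 shRNA over control within each pair for each gene list; right, median log2 difference of replicate numbers 2 and 3 from 1, over both hairpins. The 42 genes lie between all genes tested (near 0) and the S-phase and G2/M lists in both panels, and pair 3 is nearest to 0 in each repair and cell-cycle list.

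Other genes of the same repair pathways were examined beside the 42. Of 33 further homologous recombination and Fanconi genes, 2 fell and 2 rose with pairing, with a median log2 fold change of -0.11. Both counts are small beside the 12.4% lower and 12.7% higher over all genes. RPA1, the large subunit of the protein that coats single-stranded DNA, was at 148, 97.6 and 76.0 CPM in the control libraries and 58.8, 42.5 and 54.3 CPM with ACSS2 shRNA. RPA1 fell by 1.01 (SE 0.15, edgeR adjusted p = 0.000658) with no overlap between the groups. BABAM1, of a BRCA1-binding complex, fell by 0.48 (adjusted p = 0.0105). SFR1, a strand-exchange cofactor, rose by 0.91 (edgeR adjusted p = 0.00635), and FAAP100 of the Fanconi core by 0.43 (adjusted p = 0.01396). Whether these 33 genes differ from the 42 was not tested.

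Of 20 genes of damage signalling, 3 fell and none rose with pairing, with a median of -0.12. This count is near the 12.4% lower over all genes and is no result about the list. They were MDC1, which binds marked chromatin at breaks (-0.74, edgeR adjusted p = 0.00254), and the fork proteins CLSPN (-0.72, adjusted p = 0.00462) and TIMELESS (-0.58, adjusted p = 0.0216). Of 11 genes of end joining, the route that rejoins breaks without a template, 4 fell and none rose (12.4% and 12.7% over all genes), with a median of -0.29. These were NHEJ1 (-0.93, adjusted p = 0.00378), LIG3 (-0.65, adjusted p = 0.00699), PARP1 (-0.47, adjusted p = 0.0386) and XRCC6 (-0.40, adjusted p = 0.0311). None of the 3 lists had a gene that passed without pairing.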

How the data were processed

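Expected counts per gene, which need not be whole, and TPM were deposited by the authors. Per the submitters' processing notes, RSEM, Bowtie2 and HISAT were used (no versions); the annotation, and whether counting used strand, are not given in the sources here. The authors' deposited comparison gives a log2 fold change and a p-value and q-value per gene. Of the table's lines, 565 of spilled annotation text were left out and 26 symbols turned into dates were restored.

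Expected counts were rounded. The 13003 genes passing filterByExpr of edgeR 4.0.16 in R 4.3.3 (minimum count 10, minimum total 15) were tested with TMM factors and the quasi-likelihood F test, with Benjamini-Hochberg adjustment across all of them (threshold 0.05). The SE was taken as the size of the log2 fold change over the root of its F value. CPM are scaled with the TMM factors. The fit without a replicate term was chosen as the primary one and the fit with the replicate number as a block (paired) as its alternative.

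The labels give a batch tag numbered 1 to 3 in both groups. Deviations from the group mean correlated across genes by 0.716, 0.494 and 0.740 between libraries of the same number (0.1 was required of each), and by at most -0.00998 between different numbers. The deviations of a group's 3 libraries sum to 0, so the values between different numbers follow largely from the others and are no separate support. On the correlations within the same number, the numbers were taken to pair the libraries. This choice used the same expression values that were then tested. Depth, 15048275 to 18608124 counts per library, enters the tests as counting error. Scripts were tested on simulated data.

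All 42 genes and ACSS2 are named. Full values go to those called in either fit, and the 2 genes with the smallest paired p to each context list. BABAM1, FAAP100, TIMELESS, XRCC6 and PARP1 were named after their values were seen. Members and lists were chosen with earlier results of these data known. Alternatives were DESeq2 1.42.0, RLE factors, no filter, limma 3.58.1 on log2(TPM + 1) and log2(TPM + 0.1), and leaving out libraries. Exon overlaps and gene spans are from GENCODE 29 (GRCh38).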

Additional observations from a re-analysis of the deposited data

How the results depend on the processing

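The replicate block (paired fit) changed the calls: 15 of the 42 genes were lower and 1 higher with it, against 0 and 0 without. ACSS2 went from -1.05 to -1.31 (log2) and passed, but with DESeq2 and the block it was -1.38 and did not pass. Unpaired DESeq2 called 1 gene lower. With the block, limma on log2(TPM + 1) called 9 lower genes and on log2(TPM + 0.1) 8, ATM staying the 1 higher gene in both. The count of lower genes was 12 with DESeq2, 16 with RLE factors and 17 without a filter. Over all genes, 1390, 1691 and 1895 were lower with DESeq2, RLE factors and no filter. Leaving out a replicate number gave 8 to 16 lower genes and 0 to 1 higher genes, 0 without replicate 1 and without replicate 2. Over all genes, 917 to 1554 were then lower. On the TPM scale the median of all genes moved to 0.11 (TPM + 1) and 0.12 (TPM + 0.1), and calls over all genes split into 1071 lower and 2302 higher in place of 1608 and 1657. The members' median was then -0.19 (TPM + 1) unpaired, or -0.30 relative to all genes, against -0.40 with counts. It ranged from -0.65 (without control replicate 3) to -0.24 (without ACSS2 shRNA replicate 3) when 1 library or number was left out.

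The genes that changed sign were among those not called in either fit with all libraries, although FANCA passed with the block without replicate 3. On TPM + 1 and TPM + 0.1 RBBP8 was 0.0997 and 0.107 and SLX4 0.00090 and 0.0012, the same with and without the block. Leaving out libraries, the unpaired value ranged from -0.24 to 0.15 for RBBP8, -0.69 to 0.38 for RAD51D, -1.19 to 0.17 for XRCC2, -0.46 to 0.19 for TOP3A, -0.41 to 0.077 for RMI2, -0.94 to 0.16 for FANCA, -0.33 to 0.088 for FANCC, -0.060 to 0.43 for ATR, -0.051 to 0.52 for MUS81, -0.65 to 0.088 for CHEK2 and -0.73 to 0.019 for BRCA2. With the block it ranged from -0.25 to 0.013 for RMI2, -0.12 to 0.14 for RBBP8 and -0.19 to 0.015 for RAD51D. The cause was not tested. The count of genes differing between replicate numbers was 30 with RLE factors and 31 without a filter. With 3 libraries a group and 18 to 47.4 counts, a change in FANCB was not detectable at this depth unless large.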
